A study of Homo sapiens with 9 samples.

Results

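The comparison of ASO10 with the control oligonucleotide covered 119417 of 148797 regions of open chromatin, those with enough counts to be tested, and 6 of the 9 libraries of the series. Members were chosen by a filter on counts alone and not by how they changed. The cells were SK-N-BE(2)c, a human neuroblastoma line grown from a bone marrow metastasis, and so 1 line with 1 genotype. All groups had been transfected with an antisense oligonucleotide (ASO) at 100 nM by lipofectamine 2000 and were assayed 48 h later. ASO10 (3 libraries) targets NESPR, a long non-coding RNA, NCA (3 libraries) is the negative control ASO, and the remaining 3 libraries received ASO2, a further ASO against NESPR. No untransfected group was analysed here, so every library carries the effect of transfection itself. Nothing in the labels says that replicates were separate cultures, and p-values measure only the spread between these libraries.

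ATAC-seq uses Tn5 transposase to cut and tag DNA that is not wrapped in nucleosomes. Active promoters are open in most cells, and they are usually the strongest regions of such a library. Distal regions far from any gene start include enhancers, and they vary far more between cell types. An antisense oligonucleotide pairs with its RNA and can lead to its cleavage by RNase H. A level in ATAC-seq is the amount of cut DNA at a region, not the amount of an RNA, and RNA of NESPR was not measured in the data used here.

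Library totals were 8056124 to 8997844 counts under ASO10 and 7835587 to 8896406 under NCA. The region at the MYCN promoter, a locus known to be amplified in this line, held 1160 to 1290 CPM (counts scaled to the size of each library) per kb over the 6 libraries, against a median of 12.8 over all tested promoters. Promoter regions of HAND2, GATA3, ISL1 and DBH, adrenergic neuroblastoma genes, held 10.4 to 26.9 CPM per kb, and none was found for TH. None was found for PTPRC, CD3E, EPCAM, ALB or CDH5, which mark leukocytes, epithelium, liver and endothelium. Regions of KRT8, KRT18, COL1A1, COL1A2, PDGFRB and PECAM1, epithelial, fibroblast and endothelial genes, were not at 0 and held 1.94 to 15.9. The region over LINC00682 (chr4:41881456-41883212, GRCh38), taken as the NESPR gene from general knowledge, held 18.1, 15.1 and 17.5 CPM under ASO10 and 17.9, 12.4 and 15.9 under NCA. These values overlap, and the region was not called (log2 fold change 0.13 ± 0.16 SE with TMM, edgeR adjusted p = 0.835, and 0.07 with loess offsets, adjusted p = 0.916).

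The scalings by TMM and by loess offsets were set side by side. TMM gives each library 1 factor for all regions. The loess offsets instead remove, region by region, each library's own trend with the abundance of a region. Both entered edgeR's quasi-likelihood test, and a region was called at a Benjamini-Hochberg adjusted p under 0.05 over all 119417 regions. A promoter is here a region within 1 kb of the start of a protein-coding gene, or within 1 kb of either end for the 4194 of 20037 genes whose start the reference table does not list. A distal region lies more than 10 kb from these points.

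With TMM, 1046 regions were higher under ASO10 and 251 were lower, which is 0.876% and 0.21% of those tested (1.09% in all). With loess offsets, 678 were higher and 469 lower, or 0.568% and 0.393% (0.96% in all). The same direction was called with both scalings in 892 regions (0.747%), of which 661 were higher and 231 lower. No region was called in opposite directions. Another 385 regions were higher with TMM alone, 238 were lower with loess offsets alone, 17 were higher with loess offsets alone and 20 were lower with TMM alone. The counts depended on each of the 6 ASO10 and NCA libraries: leaving out 1 of these at a time gave 447 calls (without ASO10 replicate 1) to 803 (without ASO10 replicate 2) with TMM, and 553 (without ASO10 replicate 1) to 748 (without NCA replicate 2) with loess offsets.

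At promoters the scalings gave different pictures. Of 14440 tested promoters, 288 were higher and 14 lower with TMM (1.99% and 0.097%). With loess offsets 84 were higher and 69 lower (0.582% and 0.478%). The median log2 fold change over all tested promoters was 0.088 with TMM and 0.016 with loess offsets, beside -0.0067 and -0.0054 over all tested regions. Taking each ASO10 library alone against the NCA mean, the promoter medians with TMM were 0.13, 0.06 and 0.10. Promoters held 28.3%, 26.8% and 27.2% of all counts in the ASO10 libraries and 26.3%, 24.6% and 26.4% in the NCA libraries. These shares do not overlap, and a two-sided exact permutation test gave p = 0.1, the smallest that 3 against 3 libraries allow (adjusted p = 0.18 over 9 such shares). Leaving out 1 of the 6 ASO10 and NCA libraries at a time reduced the TMM calls at promoters from 302 to between 56 (without ASO10 replicate 3) and 160 (without ASO10 replicate 2). Leaving out an ASO2 library, which shares the fit, gave 217 to 394.

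**Figure D1:**
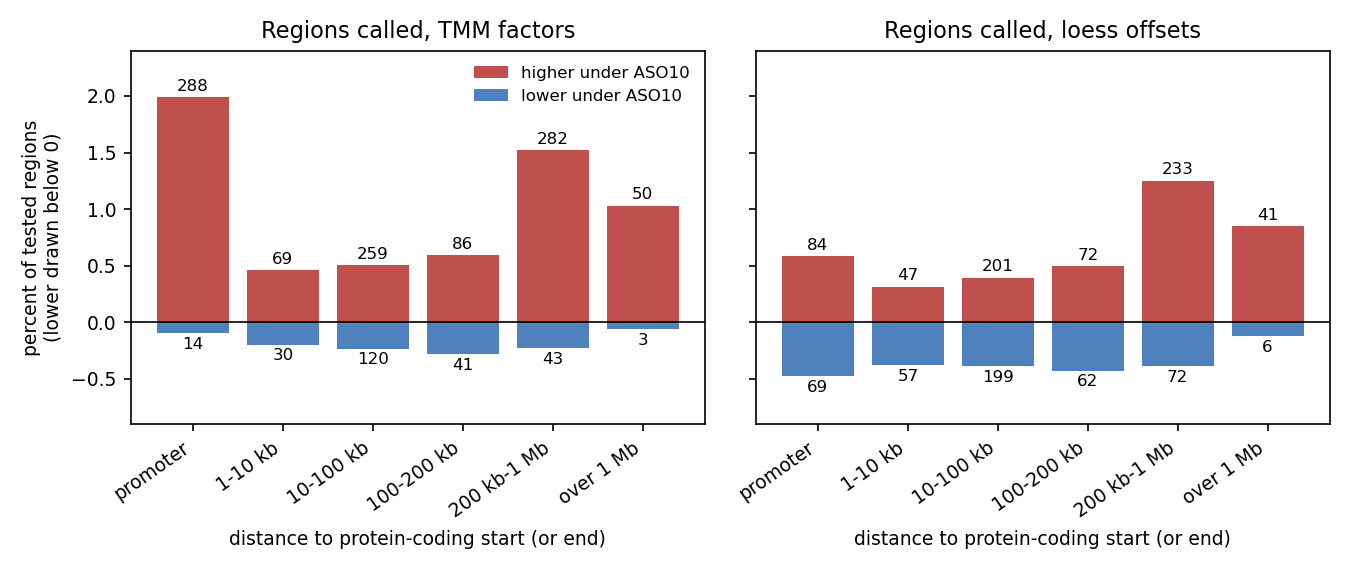
Percent of tested regions called higher (red, above 0) or lower (blue, below 0) under ASO10, by distance to the nearest protein-coding start (or end, for genes with no listed start), with TMM factors on the left and loess offsets on the right; numbers on the bars are regions. Promoters go from 288 higher and 14 lower with TMM to 84 and 69 with loess offsets, while the class from 200 kb to 1 Mb keeps 282 and 233 higher regions.

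The 2 scalings parted with abundance. With TMM, the median log2 fold change of promoters went from -0.068 under 1 log2 CPM to 0.067 at 3 to 4, 0.11 at 4 to 5, 0.17 at 5 to 6 and 0.23 at 6 to 8. With loess offsets the medians of these bins lay between -0.016 and 0.061. The offsets did not level strong regions outside promoters. Their median at 6 to 8 log2 CPM was 0.019 with TMM and -0.15 with loess offsets. Above 8 log2 CPM it was -0.0065 and -0.14. At promoters of 5 to 6 log2 CPM the offsets, the part of each library that they remove, stood at 0.13, 0.05 and 0.11 on the log2 scale in replicates 1, 2 and 3. In the NCA libraries they stood at -0.02, -0.10 and -0.01, so NCA replicate 2 lay farthest from the other 2. Whether this trend comes from the cells or from the libraries was not tested.

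**Figure D2:**
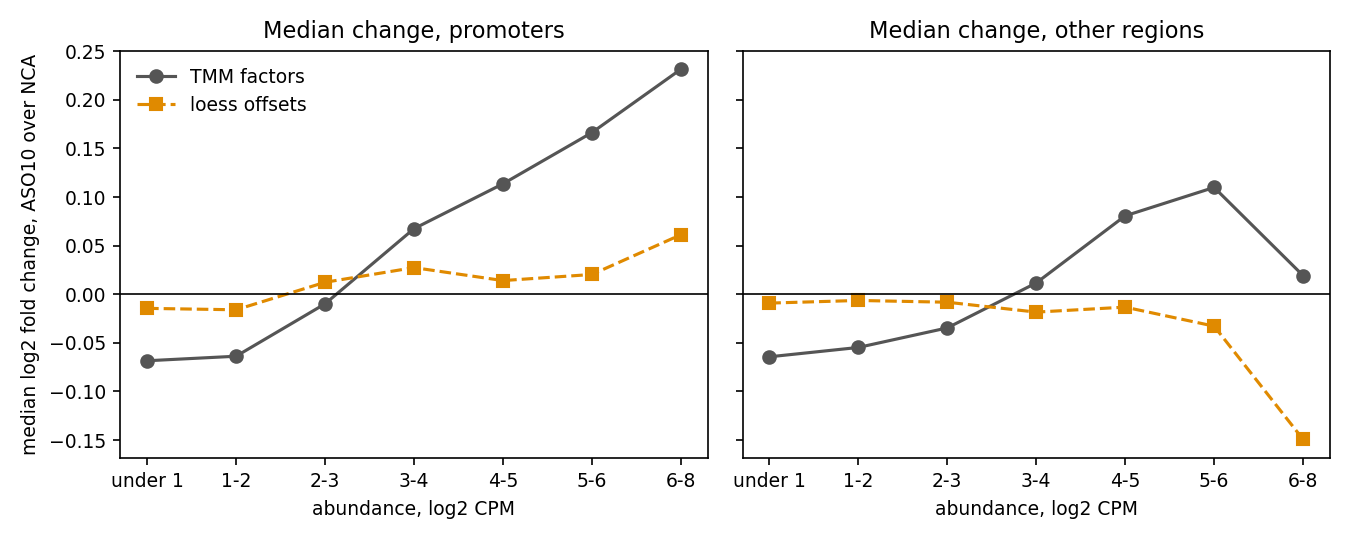
Median log2 fold change of ASO10 over NCA (vertical axis) in bins of abundance (horizontal axis, log2 CPM) for promoters (left) and all other regions (right), with TMM factors (grey circles) and loess offsets (orange squares). With TMM the promoter medians climb from -0.068 to 0.23, and with loess offsets they stay between -0.016 and 0.061. Other regions of 6 to 8 log2 CPM stand at 0.019 with TMM and at -0.15 with loess offsets. Regions above 8 log2 CPM are not drawn.

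Called promoters of known genes are described first, with the DNA just upstream of their starts. The 250 bases before the listed start (RefSeq, GRCh38.p14; positions -250 to -1 on the gene's strand) are shown for 6 promoters that were called the same way with both scalings: 5 higher ones with and without CCAAT boxes, 1 of which also covers an snRNA gene, and KLHL32, which was lower. In the order shown, the windows are chr17:7614898-7615147 (minus strand), chr19:49766751-49767000 (plus), chr22:42614884-42615133 (minus), chr19:1103807-1104056 (plus), chr17:82037698-82037947 (minus) and chr6:96924478-96924727 (plus). Capitals mark matches on either strand to 6 motifs, and a match is a string of letters, not a shown binding site. The cAMP response element (CRE) was searched as TGACGTCA and the core of the NRF1 motif as CGCATGCG. The AP-1 motif was searched as TGANTCA. The E-box of basic helix-loop-helix factors was searched as CACGTG. The CCAAT box, bound by NF-Y, was searched by the letters of its name. The GC box, bound by SP1 and related factors, was searched as GGGCGG.
FXR2: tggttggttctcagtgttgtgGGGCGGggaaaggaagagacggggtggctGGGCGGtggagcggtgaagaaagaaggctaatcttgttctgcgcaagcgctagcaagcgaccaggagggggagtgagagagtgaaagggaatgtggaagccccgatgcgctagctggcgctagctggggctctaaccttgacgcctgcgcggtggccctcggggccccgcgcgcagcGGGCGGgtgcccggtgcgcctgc
AP2A1: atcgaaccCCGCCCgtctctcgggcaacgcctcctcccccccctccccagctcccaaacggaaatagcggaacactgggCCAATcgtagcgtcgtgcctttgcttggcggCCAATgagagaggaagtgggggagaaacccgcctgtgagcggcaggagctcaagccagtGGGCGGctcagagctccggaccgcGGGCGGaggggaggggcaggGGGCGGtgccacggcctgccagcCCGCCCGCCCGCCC
POLDIP3: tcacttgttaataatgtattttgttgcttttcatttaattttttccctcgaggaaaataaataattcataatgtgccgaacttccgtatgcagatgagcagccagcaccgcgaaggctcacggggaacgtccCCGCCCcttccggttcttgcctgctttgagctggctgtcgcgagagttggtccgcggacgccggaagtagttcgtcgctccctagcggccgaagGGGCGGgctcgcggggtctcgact
GPX4: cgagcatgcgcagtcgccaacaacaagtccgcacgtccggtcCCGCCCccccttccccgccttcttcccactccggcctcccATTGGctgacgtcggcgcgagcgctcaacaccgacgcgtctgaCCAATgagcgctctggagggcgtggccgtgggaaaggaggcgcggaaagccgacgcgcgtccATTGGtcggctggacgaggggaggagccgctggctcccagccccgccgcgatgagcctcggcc
DCXR: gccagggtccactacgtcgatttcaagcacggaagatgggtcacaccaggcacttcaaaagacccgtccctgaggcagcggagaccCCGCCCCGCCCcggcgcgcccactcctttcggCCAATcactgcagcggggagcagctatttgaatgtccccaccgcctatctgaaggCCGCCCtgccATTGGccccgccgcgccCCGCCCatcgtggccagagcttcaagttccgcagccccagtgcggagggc
KLHL32: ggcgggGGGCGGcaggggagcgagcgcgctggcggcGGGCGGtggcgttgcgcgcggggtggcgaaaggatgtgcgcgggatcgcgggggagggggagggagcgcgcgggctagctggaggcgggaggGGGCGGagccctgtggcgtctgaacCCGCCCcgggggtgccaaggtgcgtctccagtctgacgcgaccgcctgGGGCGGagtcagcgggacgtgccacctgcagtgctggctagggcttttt

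FXR2 encodes an RNA-binding protein of the FMR1 family. Its promoter region (chr17:7614168-7615504, also inside the annotated SHBG gene) held 29.4, 23.9 and 24.7 CPM in the ASO10 libraries and 15.5, 14.0 and 13.0 CPM in the NCA libraries. Every ASO10 library lay well above every NCA library, which came to 0.88 ± 0.15 on the log2 scale with TMM (SE; edgeR adjusted p = 2.92e-05) and 0.79 (adjusted p = 5.04e-05) with loess offsets. The sequence printed above holds 3 GC boxes and no CCAAT box.

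AP2A1 encodes the alpha subunit of the AP-2 adaptor of clathrin-coated pits. Its promoter (chr19:49766252-49767229) held 71.8, 64.5 and 77.5 CPM under ASO10 and 47.2, 45.6 and 44.3 under NCA, with a log2 fold change of 0.64 with TMM (edgeR adjusted p = 3.66e-05) and 0.48 with loess offsets (adjusted p = 0.000662). The groups do not overlap. Its upstream sequence holds 2 CCAAT boxes and 7 GC boxes.

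POLDIP3 encodes a partner of DNA polymerase delta that also acts in mRNA export. Its promoter region (chr22:42614388-42615941) also covers RNU12, the gene of the minor spliceosomal U12 snRNA, so the signal of the 2 genes cannot be told apart at this resolution. It held 42.9, 42.9 and 44.7 CPM under ASO10 and 27.7, 24.8 and 28.8 under NCA. All ASO10 libraries were higher (log2 fold change 0.68 ± 0.13 SE with TMM, edgeR adjusted p = 0.000135, and 0.55 with loess offsets, adjusted p = 0.000677).

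GPX4 encodes the glutathione peroxidase that reduces lipid hydroperoxides and holds back ferroptosis. Its promoter (chr19:1103594-1105110) held 30.8, 30.0 and 31.5 CPM under ASO10 and 20.9, 15.8 and 18.6 under NCA. The ASO10 libraries lay close together and above all NCA libraries (log2 fold change 0.74 with TMM, edgeR adjusted p = 0.000207, and 0.64 with loess offsets, adjusted p = 0.000558). Its upstream sequence holds 3 CCAAT boxes and 1 GC box.

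DCXR, which encodes a dicarbonyl and xylulose reductase, held 40.7, 35.04 and 32.9 CPM at its promoter (chr17:82037048-82037909) under ASO10 and 22.9, 24.2 and 20.9 under NCA. The difference was 0.68 on the log2 scale with TMM (edgeR adjusted p = 0.000375) and 0.56 with loess offsets (adjusted p = 0.00154). BRD2, a BET bromodomain reader of acetylated histones, held 73.7, 63.7 and 67.6 CPM (chr6:32970271-32972434) against 48.4, 42.1 and 44.8, a difference of 0.60 with TMM (adjusted p = 0.000155) and 0.43 with loess offsets (adjusted p = 0.00293). Both promoters were higher in all 3 ASO10 libraries.

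The promoter shared by SLC25A25, a mitochondrial carrier, and NAIF1 (chr9:128067139-128068570) held 65.7, 59.4 and 67.3 CPM under ASO10 and 43.5, 38.7 and 42.7 under NCA. That of SLC35E2B, a member of a nucleotide sugar transporter family (chr1:1692401-1693673), held 112, 109 and 112 CPM against 82.8, 64.8 and 80.3. With TMM the log2 fold changes were 0.62 and 0.55 (edgeR adjusted p = 0.000105 and 0.000155), and with loess offsets 0.46 and 0.38 (adjusted p = 0.00155 and 0.00569). The 8 promoters so far are those with the smallest adjusted p among the 84 that were higher with both scalings. All 8 kept their direction and their call in every alternative that was computed for single regions. Fits with loess offsets that left out 1 library were not among these, nor was a limit of 1 on the log2 fold change. None of the 8 reached that limit with TMM. They were chosen for small adjusted p and a call with both scalings, so keeping these calls is largely set by that rule.

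Few promoters fell with TMM (14) or with both scalings (11), while 69 did with loess offsets. The 8 with the smallest adjusted p among the 11 are described here. GPC3 encodes a glypican, a cell surface heparan sulfate proteoglycan, and the region at an end of the gene (chrX:133985264-133986261) held 9.50, 6.71 and 8.99 CPM under ASO10 and 13.4, 14.6 and 14.8 under NCA. The promoter of KLHL32, a Kelch-like gene (chr6:96923965-96925156), held 13.3, 10.9 and 8.86 CPM against 19.1, 15.3 and 16.9. In both the groups do not overlap. The log2 fold changes with TMM were -0.77 ± 0.19 and -0.63 ± 0.17 (SE; edgeR adjusted p = 0.0109 and 0.0273), and with loess offsets -0.81 and -0.69 (adjusted p = 0.00387 and 0.0062).

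The other 6 were GLIPR1L2, CCDC74A, TRIM50 (an E3 ubiquitin ligase), EPB41L4B, PRR23D1 and RIC3 (a chaperone of nicotinic acetylcholine receptors). Of the 8, only KLHL32 and TRIM50 were placed by a listed start, and the rest by either end of the gene. Their log2 fold changes with TMM ran from -1.09 for TRIM50 to -0.60 for GLIPR1L2. Each of the 8 lost its call in at least 2 of the 9 fits that left out 1 library. The highest adjusted p were 0.183 for GPC3 without ASO10 replicate 2, 0.319 for KLHL32 without ASO10 replicate 3, 0.233 for TRIM50 and 0.241 for RIC3 without ASO10 replicate 3, 0.111 for GLIPR1L2 and 0.276 for CCDC74A without NCA replicate 1, 0.232 for EPB41L4B without NCA replicate 2, and 0.325 for PRR23D1 without ASO10 replicate 1 (edgeR).

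**Figure D3:**
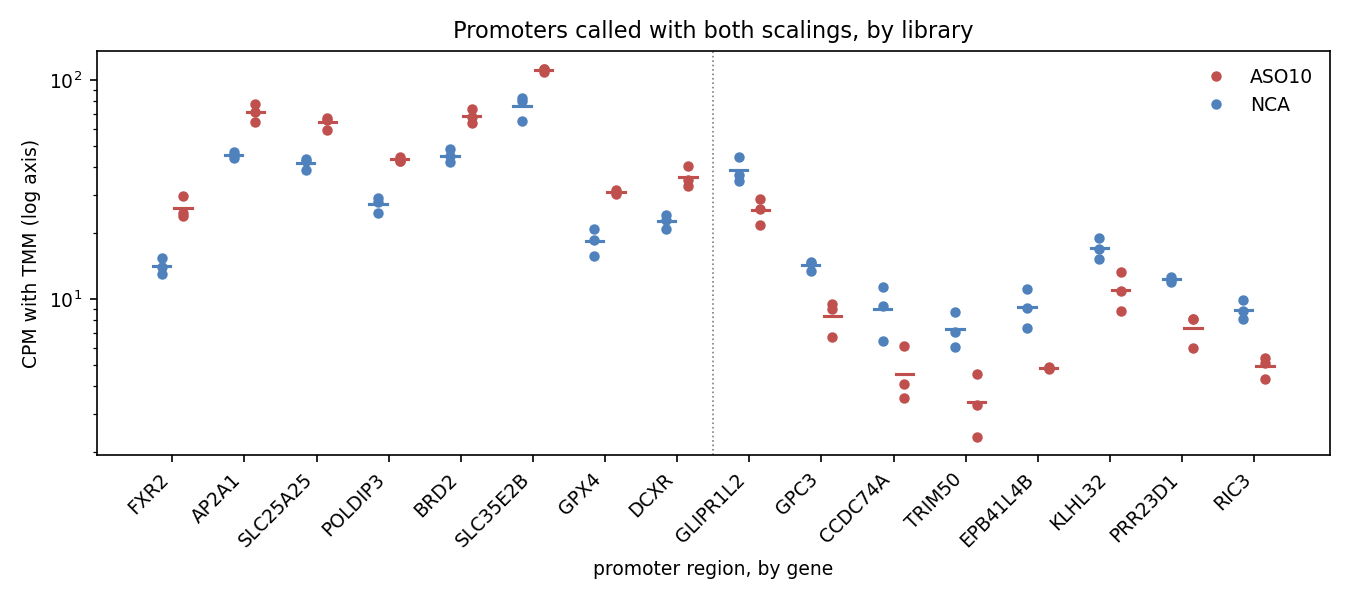
CPM with TMM (vertical log axis) in each ASO10 library (red) and NCA library (blue) at the 8 promoters called higher (left of the dotted line) and the 8 called lower (right) with both scalings; short lines are group means. In every promoter the 3 ASO10 points lie on one side of the 3 NCA points, as the rule for naming required.

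Among the 84 promoters higher with both scalings, log2 fold changes with TMM ran from 0.51 to 1.27, with a median of 0.61, and with loess offsets the median was 0.49. In 83 of the 84 all 3 ASO10 libraries lay above all 3 NCA libraries. The 84 were called on these same libraries, so this separation is largely set by the selection and adds no support. Their median abundance was 4.61 log2 CPM, above the 3.90 of all tested promoters. The 204 promoters that were higher with TMM alone were stronger regions still, with a median of 5.28 log2 CPM. Their median log2 fold change was smaller, 0.46 with TMM and 0.32 with loess offsets. Stronger regions are called at a smaller change, so this difference is in part set by the selection.

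CIC and JUND were among those 204. CIC encodes a transcriptional repressor controlled by receptor tyrosine kinase signalling, and JUND a subunit of AP-1. Their upstream sequences are shown because CIC (chr19:42268280-42268529, plus strand) has 4 CCAAT boxes and an E-box and JUND (chr19:18281623-18281872, minus strand) holds a CRE.
CIC: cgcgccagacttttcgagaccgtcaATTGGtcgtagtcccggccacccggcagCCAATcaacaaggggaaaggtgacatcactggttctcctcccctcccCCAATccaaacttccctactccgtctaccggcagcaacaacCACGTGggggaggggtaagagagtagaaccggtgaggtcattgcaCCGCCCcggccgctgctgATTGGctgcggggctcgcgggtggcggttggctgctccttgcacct
JUND: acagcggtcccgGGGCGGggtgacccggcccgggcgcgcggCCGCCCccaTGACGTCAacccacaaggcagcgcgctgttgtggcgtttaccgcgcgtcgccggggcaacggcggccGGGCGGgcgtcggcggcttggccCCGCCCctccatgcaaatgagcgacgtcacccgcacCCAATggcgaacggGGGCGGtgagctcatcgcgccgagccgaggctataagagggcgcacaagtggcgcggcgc

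The CIC promoter (chr19:42268097-42269309) held 106, 99.7 and 113 CPM under ASO10 and 80.4, 72.7 and 76.5 under NCA. The JUND promoter (chr19:18279624-18282424) held 103, 83.6 and 93.1 CPM against 71.8, 60.9 and 66.7. The groups do not overlap in either. Their log2 fold changes with TMM were 0.48 ± 0.10 and 0.49 ± 0.11 (SE; edgeR adjusted p = 0.00192 and 0.00205). With loess offsets they were 0.30 and 0.32, with adjusted p = 0.0562 and 0.0516, just short of a call. SPATC1L and ING5, the latter a reader of methylated histones, gave 0.47 and 0.49 with TMM and 0.29 and 0.32 with loess offsets (adjusted p = 0.00205, 0.00249, 0.0635 and 0.0531). Leaving out 1 library also ended the TMM call of each, with an adjusted p of 0.0832 for CIC and 0.0822 for SPATC1L without ASO10 replicate 3, and 0.121 for JUND and 0.0822 for ING5 without ASO10 replicate 1 (edgeR).

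The offsets worked the other way on 58 promoters and 148 distal regions, which were lower with loess offsets alone. The 58 promoters had a median log2 fold change of -0.34 with TMM and -0.46 with loess offsets, and in 44 of them all ASO10 libraries lay below all NCA libraries. Over all 238 regions lower with loess offsets alone, the 4 with the smallest loess adjusted p were very strong ones in which the groups overlap. They stood at 9.03 to 11.8 log2 CPM, where the offsets lowered the median of all regions outside promoters. The region in KIF5C, a neuronal kinesin gene (chr2:148881760-148881945), held 335, 459 and 559 CPM under ASO10 and 527, 568 and 511 under NCA. ASO10 replicate 1 was the lowest library and replicate 3 lay within the NCA range. Its log2 fold change was -0.25 with TMM (edgeR adjusted p = 0.104) and -0.39 with loess offsets (adjusted p = 2.25e-05). With TMM the adjusted p was 0.886 without ASO10 replicate 1 and 0.00841 without ASO10 replicate 3, so these libraries decide the value.

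The other 3 of these regions lie near EPHA6, near MSH3 and near RNF141. ASO10 replicate 1 was again the lowest library at each of the 3. All 3 overlap MTRNR2-like genes, which are nuclear copies of mitochondrial DNA, where reads of the mitochondrial genome can be placed; how the authors placed reads with several matches is not given in the sources used here. Over the 23 tested regions with such a pseudogene, 0 were higher and 1 lower with TMM, and 0 were higher and 6 lower with loess offsets, beside 0.21% and 0.393% lower over all tested regions. These regions held 7.56%, 8.08% and 9.20% of all counts under ASO10 and 9.10%, 9.64% and 8.46% under NCA, which overlap (exact permutation p = 0.3, adjusted p = 0.386).

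At distal regions the total of calls moved little with the scaling, while its split by direction shifted. Of 89036 tested, 677 were higher and 207 lower with TMM, and 547 were higher and 339 lower with loess offsets; 530 and 191 were the same with both. The median log2 fold change over all tested distal regions was -0.029 with TMM and -0.0090 with loess offsets. Counts by distance were as follows. Between 200 kb and 1 Mb from a start, 282 of 18577 regions were higher (1.52%) and 43 lower with TMM, and 233 (1.25%) and 72 with loess offsets. Between 10 and 100 kb, 259 of 51154 were higher (0.506%) with TMM and 201 (0.393%) with loess offsets. Beyond 1 Mb, 50 of 4842 were higher and 3 lower with TMM. No test compared these classes. Leaving out 1 ASO10 or NCA library gave 342 (without ASO10 replicate 1) to 572 (without ASO10 replicate 2) distal calls with TMM, and leaving out an ASO2 library gave 751 to 914.

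Distal regions that were higher with both scalings had a median log2 fold change of 0.88 with TMM, larger than the 0.61 of the promoters called in the same way, and a lower median abundance of 3.36 log2 CPM. Of these, 37.5% lay inside a protein-coding gene, against 43.5% of all tested distal regions, and their median distance was 202 kb against 75.5 kb. Those lower with both had a median of -0.80 and a median distance of 84.4 kb. The nearest gene is given below only as an address, since nothing here links a distal region to a gene.

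The distal region with the smallest adjusted p among the higher ones (chr1:99551777-99552877) lies 93.2 kb from PALMD, a gene of the paralemmin family. It held 23.1, 23.4 and 22.7 CPM under ASO10 and 7.86, 9.71 and 9.30 under NCA. Every ASO10 library lay far above every NCA library, by 1.36 ± 0.17 on the log2 scale with TMM (SE; edgeR adjusted p = 1.92e-11) and 1.29 (adjusted p = 1.90e-11) with loess offsets.

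A region 451 kb from AGTR1, the gene of the angiotensin II receptor (chr3:148245544-148247018), held 39.9, 33.7 and 39.1 CPM under ASO10 and 24.3, 15.9 and 16.0 under NCA. A region 12.7 kb from BNIP2 (chr15:59701983-59703252) held 31.3, 31.4 and 35.6 CPM against 16.5, 14.6 and 17.6. A region inside SLIT3, an axon guidance gene, whose nearest start is that of PANK3 at 318.5 kb (chr5:168897860-168898940), held 16.9, 17.6 and 16.7 CPM against 9.28, 5.04 and 6.47. None of these groups overlap. Their log2 fold changes with TMM were 1.01, 1.01 and 1.30, and with loess offsets 0.87, 0.90 and 1.25 (edgeR adjusted p from 8.85e-10 to 3.29e-08).

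A further pair of named regions lay 66.1 kb from RGS18 (chr1:192224585-192225584) and 201 kb from DGKB (chr7:15104286-15105126), genes of a G-protein regulator and a diacylglycerol kinase. The first held 35.7, 27.2 and 31.9 CPM under ASO10 and 16.2, 12.99 and 17.9 under NCA, and the second 25.7, 22.5 and 27.9 CPM against 14.7, 11.6 and 11.3. Neither pair of groups overlaps. Their log2 fold changes were 1.00 and 1.02 with TMM and 0.89 and 0.91 with loess offsets. The last 2 of the 8 higher regions both lay near CCDC200 on chromosome 17 and overlap snRNA genes, which are described further on.

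Among distal regions that fell, the smallest adjusted p belonged to a region 327 kb from HTR1E, a serotonin receptor gene (chr6:86609541-86610464). It held 9.50, 10.1 and 7.94 CPM under ASO10 and 25.1, 20.8 and 25.8 under NCA. All ASO10 libraries were under the lowest NCA library, a difference of -1.37 ± 0.17 on the log2 scale with TMM (SE; edgeR adjusted p = 1.99e-11) and -1.43 (adjusted p = 1.26e-13) with loess offsets.

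ETS1, which encodes the founding ETS transcription factor, was the nearest gene of 2 of the 8 named lower regions. The region 28.45 kb away (chr11:128616008-128616524) held 9.15, 5.46 and 8.72 CPM under ASO10 and 22.2, 15.8 and 15.2 under NCA. The region 222 kb away (chr11:128235692-128236579) held 8.21, 8.42 and 9.12 CPM against 17.5, 16.8 and 14.9. Both fell, and no ASO10 library reached the lowest NCA library (log2 fold change -1.19 and -0.93 with TMM, edgeR adjusted p = 2.19e-06 and 0.000257).

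The remaining 5 lay near ARHGAP6 and BBS9, inside GPC5, near RGS16 and inside TENM4. Inside GPC5, a glypican gene (chr13:91620508-91621639), the levels were 6.69, 6.49 and 8.46 CPM under ASO10 and 14.7, 18.9 and 13.8 under NCA. Inside TENM4, a teneurin gene (chr11:79119606-79120513), they were 7.86, 7.28 and 9.25 CPM against 15.2, 14.1 and 18.8. The log2 fold changes of the 5 with TMM ran from -1.13 in GPC5 to -0.71 near RGS16, and the offsets made each of them larger. All 16 named distal regions kept their direction and call in every alternative that was computed for single regions. These again held no limit on the size of the change and no fit with loess offsets that left out 1 library. The same rule chose these 16 regions, so keeping their calls is again largely set by it.

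**Figure D4:**
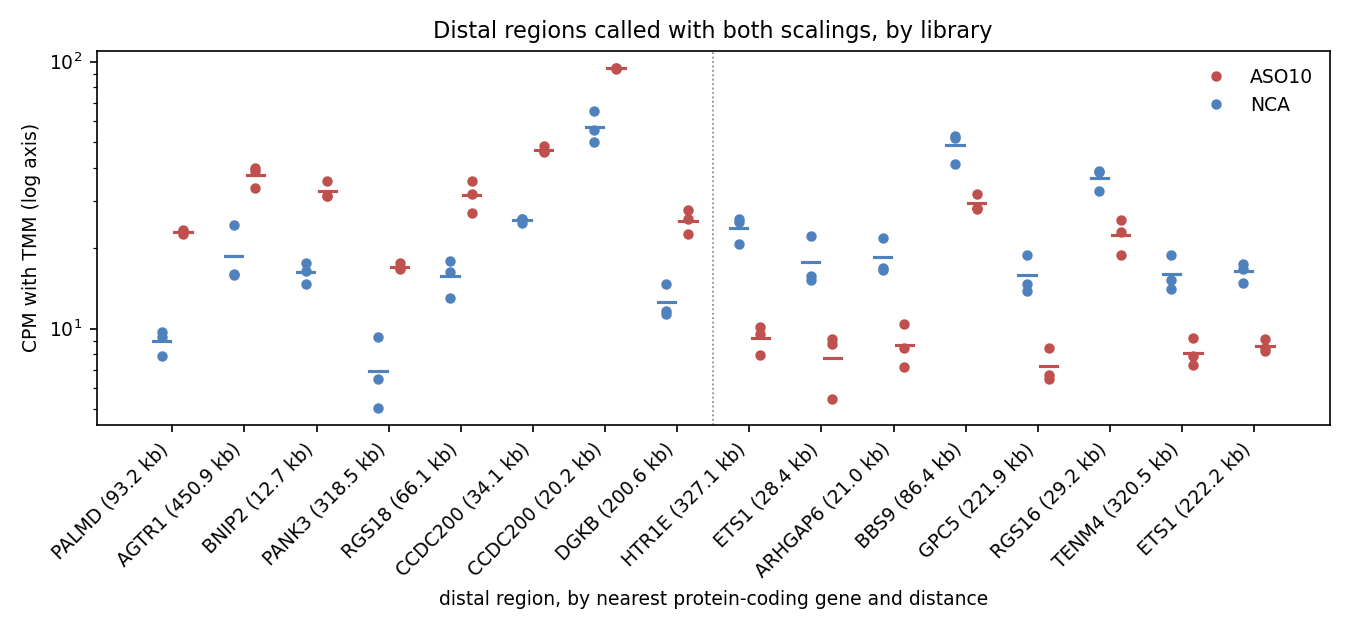
CPM with TMM (vertical log axis) in each ASO10 library (red) and NCA library (blue) at the 8 distal regions with the smallest adjusted p among those higher (left of the dotted line) and the 8 among those lower (right) with both scalings, labelled by the nearest protein-coding gene and its distance in kb; short lines are group means. ASO10 and NCA points are separated in every region, as the rule for naming required.

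Regions over small nuclear RNA (snRNA) genes were few, but a large share of them was called higher. The U1, U2, U4, U5 and U6 snRNAs are the RNA parts of the spliceosome, and U11, U12, U4atac and U6atac serve the minor spliceosome. Most are made by RNA polymerase II from short, very active genes, while U6, U6atac and 7SK are made by RNA polymerase III. This class was picked out after its values were seen, and counts are therefore a description.

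Of 72 tested regions over an snRNA gene of the reference table, 31 were higher with TMM (43.1%) and 23 with loess offsets (31.9%), and 0 were lower with either. At a like abundance, 4 to 7 log2 CPM, it was 29 of 52 with TMM and 22 of 52 with loess offsets, beside 552 and 236 of 11365 regions of every kind (4.86% and 2.08%). In 42 of the 72 all ASO10 libraries lay above all NCA libraries and in 0 below, against 15.7% of all regions in either direction. The 72 regions held 0.263%, 0.253% and 0.264% of all counts under ASO10 and 0.207%, 0.190% and 0.204% under NCA. These shares do not overlap (two-sided exact permutation p = 0.1, the smallest possible, adjusted p = 0.18 over 9 shares). Since the class was picked out on these same libraries, neither the separation nor this p adds support.

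A run of these calls lay on chromosome 17, from RNU2-1 (start at 43233790) to 43368087, where the tandem repeat of U2 genes is known to lie. The reference table has 14 snRNA genes there, 13 of them with no family name. All 14 regions over them were separated between the groups, and 12 were higher with TMM and 11 with loess offsets. Log2 fold changes with TMM ran from 0.27 to 0.88, with a median of 0.71, and with loess offsets the median was 0.59. The copies are near-identical, so which of them a read belongs to is uncertain, and the 14 are not independent. Of the other 10 tested regions in this stretch or just before it (the CCDC200 promoter), 2 were higher with TMM. The 2 were chr17:43315179-43316552 and chr17:43360416-43362026, with log2 fold changes of 0.68 and 0.62 with TMM, within the range of the copies. Both were also called with loess offsets (0.59 and 0.50, edgeR adjusted p = 0.0062 and 0.00554). The CCDC200 promoter was not called (0.10 with TMM). Most of the rest were weaker than any copy, so the counts are not a like comparison.

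The RNU2-1 region itself (chr17:43233452-43234711) held 35.4, 40.8 and 40.6 CPM under ASO10 and 23.7, 26.1 and 28.0 under NCA. The copy with the largest change (chr17:43265397-43267122, 34.1 kb from CCDC200) held 46.1, 48.4 and 45.7 CPM against 25.6, 25.7 and 24.8. The groups do not overlap at either region, and the gap was wide beside the spread of replicates only at the copy with the largest change. The log2 fold changes were 0.58 ± 0.13 and 0.88 ± 0.13 (SE; edgeR adjusted p = 0.00246 and 5.32e-08) with TMM and 0.46 and 0.75 (adjusted p = 0.013 and 2.67e-07) with loess offsets. The strongest copy (chr17:43251518-43252386) held 94.2, 94.8 and 93.9 CPM against 65.1, 50.2 and 55.6.

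**Figure D5:**
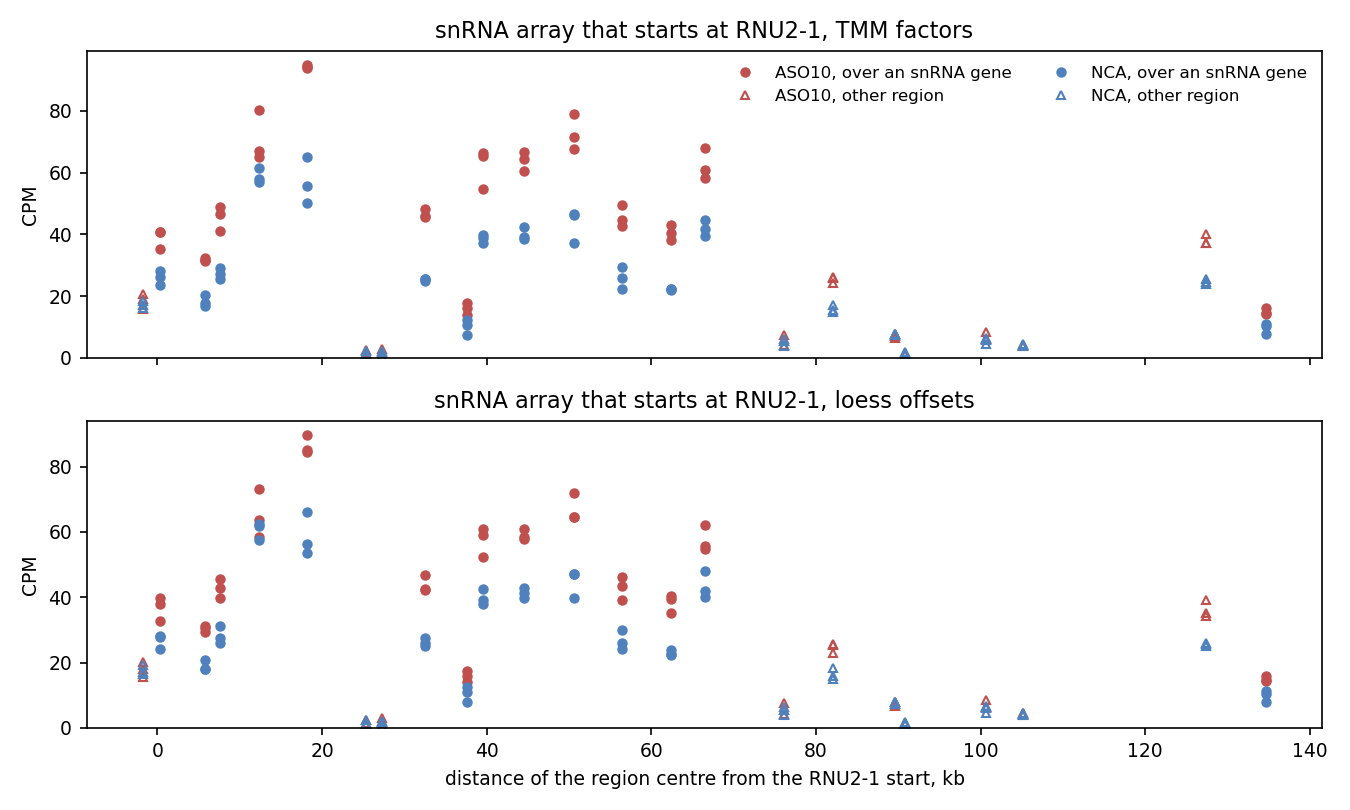
CPM (vertical axis) in each ASO10 library (red) and NCA library (blue) at tested regions along the snRNA array, by distance of the region centre from the RNU2-1 start in kb (horizontal axis), with TMM factors above and loess offsets below; filled circles are regions over an snRNA gene and open triangles other regions. With TMM all 14 snRNA regions have their 3 ASO10 points above their 3 NCA points; 12 of them are called with TMM and 11 with loess offsets.

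Outside this array, 19 of 58 regions were higher with TMM and 12 with loess offsets. Genes outside the near-identical copies are described first. RNU5D-1, a U5 gene (chr1:44730283-44731505), held 21.7, 21.2 and 21.2 CPM under ASO10 and 10.2, 14.0 and 11.3 under NCA, or 0.85 ± 0.16 on the log2 scale with TMM (SE; edgeR adjusted p = 0.000296) and 0.79 (adjusted p = 0.000481) with loess offsets. RNU11, the U11 gene (chr1:28648062-28649364), held 27.4, 25.8 and 29.2 CPM against 18.6, 14.5 and 18.2, with 0.68 and 0.59. The region over the adjacent U4 genes RNU4-1 and RNU4-2 (chr12:120291044-120293403), which is also the SIRT4 promoter, held 69.3, 81.5 and 73.3 CPM against 50.5, 54.8 and 51.2, with 0.52 and 0.35. In each of these 3 the ASO10 libraries were all higher.

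More U5 genes were called with both scalings: RNU5B-1, RNU5A-1 and RNU5E-1. RNU5B-1 (chr15:65304190-65305627) held 31.1, 28.9 and 32.9 CPM under ASO10 and 18.0, 20.2 and 19.5 under NCA. RNU5A-1 gave a log2 fold change of 0.61 and RNU5E-1 of 0.59 with TMM. The groups overlapped at the fifth U5 region, over RNU5F-1, with 10.1, 10.1 and 10.0 CPM against 9.40, 10.97 and 11.2. Single libraries ended some of these calls with TMM: the adjusted p was 0.0615 for RNU11 and 0.0694 for RNU5E-1 without NCA replicate 2, 0.0534 for the U4 region without ASO10 replicate 2 and at most 0.178 for RNU5A-1, without NCA replicate 1 (edgeR).

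All 4 U1 regions, near-identical copies on chromosome 1, were higher with TMM (median log2 fold change 0.50) and 2 with loess offsets. Of 15 regions over variant U1 genes, 5 were higher with TMM and 2 with loess offsets. No region over a gene of U6 (4 regions), U6atac, U7, U4atac or 7SK (1 each) was called with either scaling, nor any of the 17 over SNAR genes. Their log2 fold changes with TMM had a median of 0.13 for U6 and were 0.21 for U6atac, 0.14 for U7, 0.27 for U4atac and 0.25 for 7SK. The median of the SNAR regions was -0.05. These miss the threshold and do not show equal levels, and the difference between these families and the called ones was not tested.

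Other classes of short genes were counted in the same way. Over all regions 0.876% were higher with TMM and 0.568% with loess offsets, and 4.86% and 2.08% of those of 4 to 7 log2 CPM. Of 219 regions over a tRNA gene, 3 were higher with either scaling (1.37%), and 0 were lower. Of 42 over a small nucleolar RNA gene, 4 were higher with TMM (9.52%) and 2 with loess offsets (4.76%), and 0 were lower. Of 206 over a miRNA gene, 8 were higher and 1 lower with TMM, and 1 each with loess offsets. Of 29 over an rRNA gene, 8 were higher with TMM and 0 with loess offsets, and reads among such copies are uncertain. The 39 promoters of replication-dependent histone genes had a median log2 fold change of 0.29 with TMM and 0.19 with loess offsets, with 2 and 1 called higher. The snRNA class kept 23 of its 31 calls with loess offsets, while the rRNA class kept 0 of 8. The rRNA regions were stronger, with a median of 6.20 log2 CPM against 4.97 for the snRNA regions. The offsets act by abundance, so this is not a like comparison of the 2 classes.

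Sequence features of called promoters were compared with all tested promoters that have a listed start, over the 250 bases upstream. A CCAAT box lay in 55.4% of the 74 that were higher with both scalings, in 64.5% of the 169 higher with TMM alone and in 37.3% of the 51 that were lower with loess offsets. It lay in 34.0% of all 11569 and in 41.0% of the 5744 with 4 to 7 log2 CPM. A GC box lay in 82.4%, 84.6%, 62.7%, 68.4% and 75.9% of these sets in the same order. The first part of a CRE (TGACG, which also counts every CRE) lay in 44.6%, 38.5%, 21.6%, 28.4% and 32.3%. An AP-1 match lay in 2.70%, 1.78%, 0%, 3.65% and 2.39%. These are shares of letters in a window and carry no test.

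Median GC content was 66.8% for promoters higher with both scalings and 65.6% for all of those with a listed start, and 66.8% for those of 4 to 7 log2 CPM. By GC content the share higher with TMM was 1.16% under 50%, 1.81% at 50 to 60% and 2.52% at 60 to 70%. It was 2.29% at 70 to 80% and 1.08% over 80%. The median log2 fold changes of these bins, in the same order, were 0.042, 0.058, 0.099, 0.12 and 0.10 with TMM. With loess offsets they were 0.0025, -0.014, 0.018, 0.040 and 0.040. Median abundance differed as well, from 2.89 log2 CPM under 50% to 4.16 at 70 to 80%. The place in the genome differed as well. Of the 84 promoters higher with both scalings, 57.1% lay on chromosomes 17, 19 and 22, where 15.1% of all tested promoters lie. Of the 58 lower with loess offsets alone, 0% lay there. These 3 chromosomes were singled out after their values were seen.

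Over all tested regions, promoters or not, the median log2 fold change was 0.058 on chromosome 17, 0.078 on 19 and 0.076 on 22 with TMM, and 0.057, 0.060 and 0.088 with loess offsets. Chromosome 18 gave 0.058 with both. Each of the other chromosomes lay between -0.044 and 0.029 with TMM. The medians of the single ASO10 libraries against the NCA mean were 0.067, 0.072 and 0.057 on chromosome 17, 0.076, 0.070 and 0.078 on 19, and 0.058, 0.079 and 0.091 on 22. On chromosome 18 they were 0.082, 0.023 and 0.061. Chromosomes 17, 19 and 22 were picked out on these same libraries, so a shared side adds no support. Offsets by abundance left these differences between chromosomes in place.

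Promoters of 10 gene lists were counted. With TMM, 7 list promoters were higher and 0 lower, and with loess offsets 1 was higher and 0 lower. The counts below stand beside 1.99% of all promoters higher with TMM and 0.582% with loess offsets, shares at which a list of this size holds few calls or none. The integrated stress response, the ATF4 programme that cells run when translation initiation is curbed, had 1 of 25 promoters higher with both scalings and a median log2 fold change of 0.29 with TMM and 0.16 with loess offsets. The called member was DDIT4, an inhibitor of mTORC1 (chr10:72272634-72274390), with 55.5, 54.8 and 57.9 CPM under ASO10 and 31.4, 40.3 and 44.6 under NCA. Its groups do not overlap, and its log2 fold change was 0.53 with TMM (edgeR adjusted p = 0.00275) and 0.38 with loess offsets (adjusted p = 0.0317). The TMM call was lost without ASO10 replicate 3 and without NCA replicate 1, where the adjusted p was 0.211.

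The unfolded protein response had 1 of 19 promoters higher with TMM, that of HERPUD1, a component of endoplasmic reticulum degradation (log2 fold change 0.51, edgeR adjusted p = 0.0302; loess 0.41, adjusted p = 0.088). The AP-1 and immediate early list had 2 of 17, JUND and EGR1, and the cell cycle list 2 of 30, TOP2A (0.50 and 0.37) and the promoter that CDK2 shares with RAB5B (0.38 and 0.21). EGR1 had 0.40 with TMM and 0.23 with loess offsets. The adrenergic list had 1 of 16, TBX2 (0.48 and 0.36). Apart from DDIT4 and JUND, each of these TMM calls was lost in at least 5 of the 9 fits that left out 1 library, with adjusted p up to 0.31 for HERPUD1 without NCA replicate 2, 0.335 for EGR1 and 0.271 for TOP2A without ASO10 replicate 1, 0.232 for CDK2 and RAB5B without ASO10 replicate 3 and 0.334 for TBX2 without NCA replicate 1 (edgeR).

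No promoter was called, higher or lower with either scaling, for the mesenchymal factors (19 promoters), p53 targets (18), the interferon response (17), cytosolic ribosomal proteins (77) or the BCL2 family (13), and at the shares of all promoters given above nothing is read from this. Medians of all 10 lists lay between 0.11 and 0.29 with TMM and between 0.021 and 0.16 with loess offsets, beside 0.088 and 0.016 over all tested promoters and 0.13 and 0.017 over the 6798 promoters of 4 to 7 log2 CPM. The p53 targets (0.11 and 0.021) and ribosomal proteins (0.11 and 0.026) lay nearest to the promoters at large. RPL7 and RPLP0, the 2 most abundant ribosomal protein promoters, gave 0.15 and 0.25 with TMM and -0.02 and 0.11 with loess offsets. Named promoters of the other uncalled lists, taken from the 2 most abundant of each, were JUN and FOSL2 (0.38 and 0.34 with TMM), GADD45A and RRM2B (0.30 and 0.29), STAT2 (0.21), and MCL1 and BCL2L1 (0.39 and 0.24), all with edgeR adjusted p above the threshold.

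Set directly against ASO2, promoters and distal regions parted. The direct test uses the same ASO10 libraries as the test against NCA, so the calls of the 2 tests are not independent. It called 815 regions higher under ASO10 and 3038 lower with TMM (0.682% and 2.54%), and 619 and 2689 with loess offsets (0.518% and 2.25%). Among promoters 434 were higher and 52 lower with TMM, and 230 and 107 with loess offsets. Among distal regions 293 were higher and 2727 lower with TMM, and 305 and 2353 with loess offsets. Of the 84 promoters higher than NCA with both scalings, 32 were also higher than ASO2 with TMM and 0 lower. Of the 530 distal regions higher than NCA with both, 28 were higher than ASO2 and 20 lower.

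For the snRNA class, 27 of 72 regions were higher under ASO10 than under ASO2 with TMM and 17 with loess offsets, and 0 were lower. Single regions among them were RNU5D-1, with 11.3 ± 2.76 CPM under ASO2 (SD, n = 3) and a difference of 0.92 on the log2 scale (edgeR adjusted p = 1.01e-05), and POLDIP3 with RNU12, with 28.9 ± 1.99 CPM and a difference of 0.59 (adjusted p = 0.000462). Variant U1 regions made up 11 of the 27, while only 5 of the 15 tested were called higher than NCA with TMM. At RNVU1-8 the means were 33.8 CPM under ASO10, 33.7 under NCA and 23.5 under ASO2. The count of 27 thus also holds regions where ASO2 lay below NCA and ASO10 did not rise. Of the 57 regions named by rule, 13 were higher and 8 lower under ASO10 than under ASO2 with TMM, and 7 and 9 with loess offsets. For PALMD, AGTR1, BNIP2, PANK3, RGS18, DGKB and HTR1E no difference between the 2 oligonucleotides was called, which does not show that they are equal.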

How the data were processed

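Chromatin accessibility was measured by ATAC-seq: per the labels' protocols, genomic DNA was cut by Tn5 and read in pairs on a NextSeq 500, although the labels' molecule field names RNA. The authors deposited 1 table of raw counts per region for 9 libraries. The submitters' processing notes name FastQC, Bowtie2 2.2.6, SAMtools, MACS2 2.1.2, DESeq2 1.42.0 and hg38 (GRCh38), without roles. Whether reads, pairs or cut sites were counted, any shift for the Tn5 cut, the duplicate and mapping filters and the pooling for peak calling are not given in the sources used here. Openings outside the deposited regions cannot be seen.

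Regions with low counts were removed with edgeR's filterByExpr (edgeR 4.0.16, limma 3.58.1, R 4.3.3). Counts of all 9 libraries entered 1 quasi-likelihood fit with a term per group, with TMM factors or with loess offsets (span 0.3 over mean log2 abundance), and p-values were adjusted over all 119417 tested regions. CPM in the text are TMM-scaled. Library totals limit the precision, and pairs of replicates differed by 2.64 to 3.12 times the variance of pure counting. The biological coefficient of variation was 23.5% with TMM and 23.2% with loess offsets. On counts simulated for this comparison, with 113540 regions tested and 200 changed by 1 on the log2 scale, TMM recovered 29% and loess offsets 28.5%, with 88.2% and 86.3% of the 51 above 3 log2 CPM, and 2 false calls in each direction with either. With an added abundance trend (113410 tested), false calls numbered 5 higher and 2 lower with TMM and 1 in each direction with loess offsets.

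Named regions were called the same way with both scalings with all ASO10 libraries on one side of all NCA libraries: the 8 higher and 8 lower promoters and distal regions with the smallest adjusted p. To these were added the 4 promoters called higher with TMM alone and the 4 regions called lower with loess offsets alone with the smallest adjusted p, the LINC00682 region, and the called promoters of each gene list or, where none was called, its 2 most abundant (some named items are not reported here). The members, lists and rules were chosen with earlier results of these data known. The snRNA class, chromosomes 17, 19 and 22 and some alternatives were chosen after these values were seen. Gene positions, types and promoter sequences are from RefSeq (GRCh38.p14). Alternatives were RLE, upper quartile and total count scaling, a loess span of 0.6, limma-voom, DESeq2 1.42.0, other count filters, other distance limits, a replicate block, a fit of the 2 groups alone and leaving out each library. Summaries used Python 3.11.15, pandas 2.3.3, scipy 1.17.1 and matplotlib 3.10.9.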

Additional observations from a re-analysis of the deposited data

Results flagged for a closer look

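Named regions are given here where ASO10 differed from ASO2 in the direct edgeR test with TMM factors (adjusted p over all tested regions), as the log2 difference ASO10 minus ASO2. Among promoters higher than NCA it was 0.6172 at FXR2, 0.4914 at AP2A1, 0.3679 at SLC25A25, 0.5893 at POLDIP3, 0.4822 at SLC35E2B, 0.4914 at GPX4 and 0.5072 at DCXR. The adjusted p of these ran from 0.000425 at SLC35E2B to 0.0388 at SLC25A25. With loess offsets the difference was called at FXR2, POLDIP3, GPX4 and DCXR, and not at AP2A1, SLC25A25 or SLC35E2B. At CIC it was 0.4478, at JUND 0.563, at DDIT4 0.4384 and at TOP2A 0.4243, of which only JUND was called with loess offsets.

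Among regions lower than NCA the difference was -0.6177 at GPC3, -0.5938 at KLHL32, -0.5613 near RGS16 and -0.8504 at the farther region near ETS1, all called with both scalings. Over the snRNA array near CCDC200 it was 0.5929 and 0.5098. At single snRNA regions it was 0.5209 for RNU11, 0.922 for RNU5D-1, 0.3595 for RNU4-1 and RNU4-2, and 0.4494 for RNU5B-1. With loess offsets it was called for RNU11 and RNU5D-1, and not for RNU4-1 and RNU4-2 (adjusted p = 0.427) or RNU5B-1 (adjusted p = 0.084).

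At the strong regions in KIF5C and near EPHA6, MSH3 and RNF141 the difference was -0.3701, -0.3767, -0.3432 and -0.3199. The last 3 overlap nuclear copies of mitochondrial DNA, and a part of read placement in these values was not tested.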

How the results depend on the processing

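Of 192 alternatives over 13 main results, 129 stayed within their limit and 63 moved by more. Of 1196 over 63 single regions, 1056 kept direction and call, 104 lost a call, 34 gained one and 2 turned sign: the LINC00682 region, nearest to TMEM33, without NCA replicate 2 (-0.004387, and up to 0.2496 without another library) and RPL7 with loess offsets (-0.02336), neither called. TMM calls over all regions were 768 with limma-voom and 279 when changes also had to exceed 1 on the log2 scale; leaving out 1 library gave 447 to 1417. TMM calls at promoters were 582 with upper quartile factors, 153 with loess offsets, 508 with at least 10 counts in every library, 455 with only ASO10 and NCA fitted, 5 with the fold limit, and 56 to 394 without 1 library. Distal TMM calls were 435 with limma-voom, 254 with the fold limit and 342 to 914 without 1 library. With loess offsets the fold limit left 266 regions, 2 promoters and 246 distal regions, the count minimum of 10 gave 247 promoters, and leaving out 1 library gave 553 to 1088, 51 to 147 and 442 to 836. The fold limit left 0 snRNA regions with either scaling; without the U2 array, U1 and variant U1 copies 10 remained with TMM and 8 with loess offsets, and without 1 library 21 to 31 and 17 to 22. The promoter median was 0.01631 with loess offsets and 0.06933 to 0.1096 without 1 library. The distal median was -0.05813 with total counts, -0.0008672 with upper quartile factors, -0.009049 with loess offsets, -0.01269 beyond 50 kb and -0.05197 to -0.002399 without 1 library. List calls numbered 1 with loess offsets. The difference in promoter share was 1.115 to 2.008 percentage points without 1 library. Causes were not tested.

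With the replicate number as a block, TMM calls were 983 over all regions and 178 at promoters, and 1045 regions with loess offsets. Deviations from the group means hardly correlated between same-numbered libraries (0.00254, 0.0126 and 0.00236), and only replicate 2 matched its own number best. Most tested regions are weak and their deviations hold much counting noise. Whether same-numbered libraries were paired therefore cannot be told from these values. Weak regions limit the depth: a change there was seldom recovered on simulated counts.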
